A study of Rattus norvegicus with 9 samples.

Results

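The genes of the signal peptidase complex and of the Sec61 translocon were followed in RNA from the rat medial prefrontal cortex (mPFC). The members were the rows of the deposited gene table whose name was Sec11a, Sec11c, Spcs1, Spcs2, Spcs3, Sec61a1, Sec61b or Sec61g, which gave 8 of 34463 genes, 5 of the signal peptidase and 3 of the translocon. They were selected on the FPKM of Sec11c, which was among the clearest differences between the PHL + CMS and the Veh + CMS group. The values of that comparison are therefore given for these genes as a description, with no test, and those of Sec11c carry no test in any comparison, since every comparison shares libraries with it.

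All rats were male Sprague-Dawley animals, and their age was not found in the sources read here. The Veh group (labelled Vehicle) received vehicle and stayed undisturbed in the home cage, the Veh + CMS group (labelled CMS) received vehicle and 3 weeks of varied stressors, called chronic mild stress (CMS), and the PHL + CMS group (labelled CMS+PHL) received phloretin (PHL), a dihydrochalcone from apples, before and during the stress. The dose chosen for the work in vivo was 20 mg/kg with 2 weeks of pre-treatment. Each group held 3 libraries, no library came from rats given PHL without stress, and the labels do not say that the libraries came from separate animals. A p-value here sets a difference against the spread between libraries only, and that spread may be technical in part.

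The proteins that leave a cell or sit in its membranes begin their path at the endoplasmic reticulum (ER). A ribosome that makes such a protein is brought to the ER by the signal recognition particle, and the growing chain is threaded into or through the membrane by the Sec61 channel. The signal peptidase then cuts the signal peptide from the chain, and sugar transfer and folding follow in the ER lumen. In the brain this route serves receptors, channels, neuropeptides, synaptic adhesion proteins and the membrane proteins of myelin.

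The start regions of 3 members are shown for reference, and no expression result rests on these sequences. The regions are those of Sec11c and Sec11a, alternative catalytic subunits with unlike patterns, and of Sec61g. The PHL + CMS libraries of Sec61g, like those of Spcs1, lay below all others. For each member shown, the region is given as a sequence below. Each region is the run of 250 bases before the start of the gene, 5′ to 3′ on the strand of the gene, from RefSeq in the assembly GRCr8. Sec11c lies on the plus strand (chr18:61590655-61590904), Sec11a on the minus strand (chr1:144318659-144318908) and Sec61g on the minus strand (chr14:95119459-95119708). Capitals mark the letters CCAAT, the box bound by NF-Y, and CCACG, which in ER stress response elements follows a CCAAT box, on either strand.
Sec11c: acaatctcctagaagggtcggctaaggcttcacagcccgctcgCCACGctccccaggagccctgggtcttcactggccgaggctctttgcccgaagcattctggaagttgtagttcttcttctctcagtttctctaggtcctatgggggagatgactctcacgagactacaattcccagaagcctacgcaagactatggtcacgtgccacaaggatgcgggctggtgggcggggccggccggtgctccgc
Sec11a: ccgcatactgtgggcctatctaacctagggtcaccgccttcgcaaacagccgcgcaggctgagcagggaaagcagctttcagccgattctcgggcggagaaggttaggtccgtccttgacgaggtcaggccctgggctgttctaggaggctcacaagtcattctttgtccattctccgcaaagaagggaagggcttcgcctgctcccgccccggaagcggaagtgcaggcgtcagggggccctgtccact
Sec61g: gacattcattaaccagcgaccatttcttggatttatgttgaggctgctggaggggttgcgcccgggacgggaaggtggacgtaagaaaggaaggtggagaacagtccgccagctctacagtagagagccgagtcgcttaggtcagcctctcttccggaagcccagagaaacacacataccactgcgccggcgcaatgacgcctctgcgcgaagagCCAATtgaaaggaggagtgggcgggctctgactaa

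Sequences before the start were found for 7 of the 8 members, all but Sec61a1. Between the start and 250 bases before it, the letters CCAAT or their reverse complement stood in 3 of the 7 (Spcs2, Spcs3 and Sec61g) and in 34.0% of 33469 RefSeq start regions of the same length. In Sec61g the box ran from base 35 to base 31 before the start. The letters CCACG stood in 2 of the 7 (Sec11c and Spcs2) and in 27.2% of all regions, and in Sec11c they ran from base 207 to base 203. The full ER stress response element, which joins both as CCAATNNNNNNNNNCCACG, stood in none of the 7 and in 0.0657% of all regions. The core TGACGTGG of the unfolded protein response element, and the shorter GACGTG inside it, also stood in none, against 0.52% and 5.25% of all regions. The share of G and C was 59.2% in the region of Sec11c, 61.2% in that of Sec11a and 40.8% in that of Sec61b, beside a median of 51.2% over all regions.

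The table holds FPKM, the fragments of a gene per kilobase of its length and scaled to the size of the library, so that levels can be roughly compared between genes. The level of a short gene, or of one with copies elsewhere in the genome, is less sure. The libraries held 13913639 to 16960004 reads on genes, as recovered from the FPKM, and the 8 members rested on 341 to 2768 reads per library and gene. Of all genes, 16159 had a mean of at least 0.5 FPKM and were tested with limma on log2(FPKM + 0.1), where a fold change of a low gene is understated. All 8 members passed that filter. The tissue markers of cortex were present, with Slc17a7, the vesicular glutamate transporter of cortical neurons, between 389 and 631 FPKM. Marker lists differed between and within groups. Relative to the Veh mean, the log2 level of 10 genes of striatal projection neurons stood at 1.33 in Veh replicate 3 and at -0.77 and -0.56 in the other Veh libraries. That of 15 genes of oligodendrocytes and myelin stood at 1.25 in PHL + CMS replicate 2 and at 0.34 and 0.12 in the other PHL + CMS libraries. In bulk tissue, fewer cells of a type and less RNA per cell cannot be told apart.

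Over the 9 libraries Sec11c was at the top with a mean of 134 FPKM, followed by Sec61g at 107, Spcs1 at 86.7, Sec61b at 44.3, Spcs3 at 43.1, Spcs2 at 38.5, Sec11a at 28.8 and Sec61a1 at 22.5 FPKM. Sec11c stood at place 576 of the 34463 genes by mean FPKM and Sec61a1 at place 3916. The ranges of Spcs1 and Sec61b over the libraries did not touch, nor did those of Spcs2 and Sec11a. Sec11a likewise lay above Sec61a1 in all 9 libraries. Sec61g overlapped in its range with both Sec11c and Spcs1, and Sec61b, Spcs3 and Spcs2 overlapped each other.

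**Figure D1:**
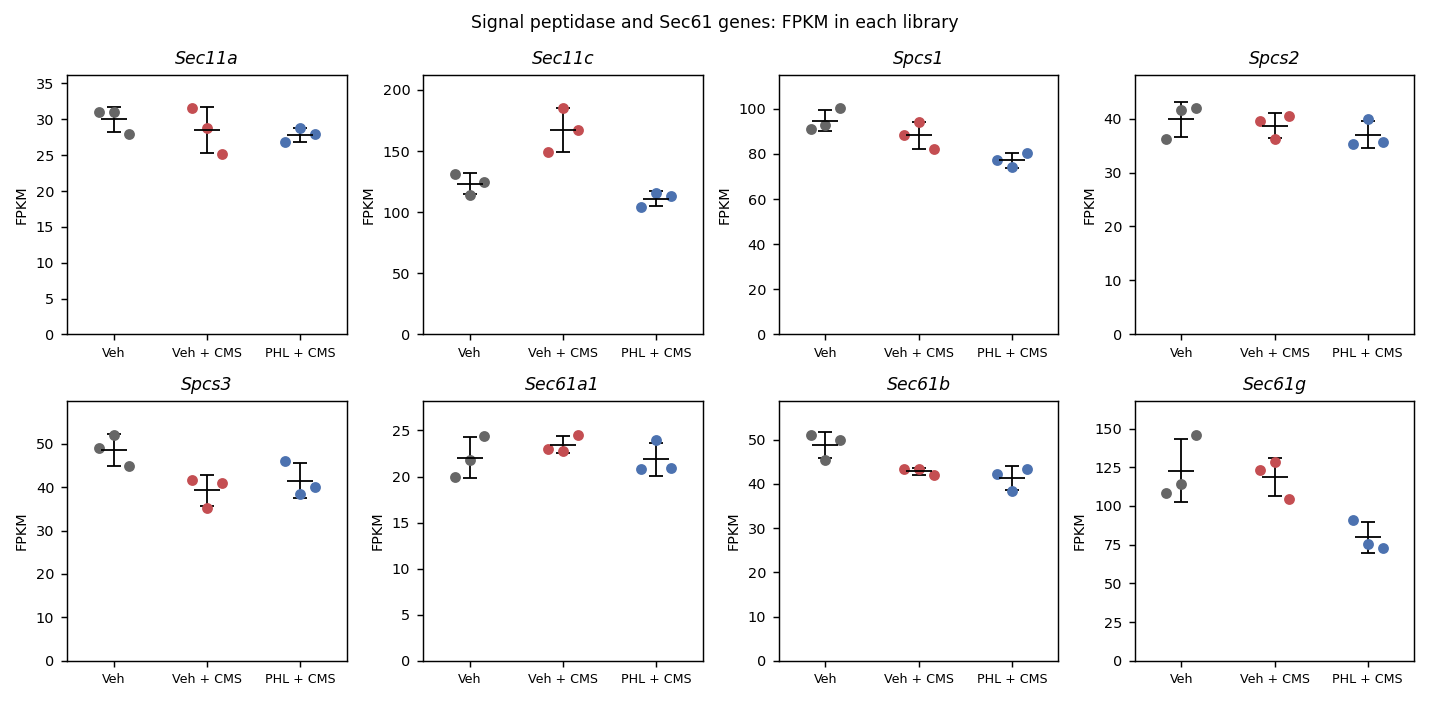
FPKM of each of the 8 genes in the 9 libraries, by group. Points are libraries and bars are the mean and SD of 3. The Sec11c panel shows the Veh + CMS libraries between 149 and 185 FPKM, above all others, and the Sec61g panel shows the PHL + CMS libraries between 72.8 and 91.0 FPKM, below all others.

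Sec11c (ENSRNOG00000017036, chr18:61490031-61506508 on the plus strand of Rnor_6.0, the build of the deposited table) encodes a catalytic subunit of the signal peptidase. It was at 131, 114 and 124 FPKM in the Veh libraries, at 149, 185 and 168 FPKM in the Veh + CMS libraries, and at 104, 116 and 113 FPKM in the PHL + CMS libraries. All 3 Veh + CMS libraries lay above all others, and the Veh and PHL + CMS libraries overlapped. The means were 123.4 ± 8.49, 167.2 ± 17.8 and 110.9 ± 6.15 FPKM (SD, n = 3 each). The log2 fold change was 0.43 (SE 0.09) for Veh + CMS against Veh, -0.59 (SE 0.09) for PHL + CMS against Veh + CMS and -0.15 (SE 0.09) for PHL + CMS against Veh. In percent of the mean, Sec11c stood 35.5% higher under CMS than in the Veh group. With each library left out in turn, the log2 fold change lay between 0.36 and 0.51 for Veh + CMS against Veh and between -0.67 and -0.51 for PHL + CMS against Veh + CMS.

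Sec11a (ENSRNOG00000011029, chr1:142733434-142759882, minus strand) encodes the paralogous catalytic subunit, which in human cells forms a signal peptidase of its own with the same partners. Its libraries stood at 31.0, 31.0 and 27.96 FPKM in the Veh group, at 31.5, 28.7 and 25.1 FPKM in the Veh + CMS group and at 26.8, 28.8 and 27.95 FPKM in the PHL + CMS group. The groups overlapped in every comparison. Against Veh, the log2 fold change was -0.08 (95% interval -0.29 to 0.13) in the Veh + CMS group and -0.11 (95% interval -0.32 to 0.11) in the PHL + CMS group, with adjusted p of 0.664 and 0.726 from limma. Against Veh + CMS, the PHL + CMS group stood at -0.03 (SE 0.09), which turned to 0.05 without Veh + CMS replicate 1.

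Within a library, Sec11c made up most of the catalytic subunit RNA. Its share of the summed FPKM of Sec11a and Sec11c was 80.9%, 78.7% and 81.7% in the Veh libraries, 82.6%, 86.6% and 87.0% in the Veh + CMS libraries, and 79.5%, 80.1% and 80.2% in the PHL + CMS libraries. The Veh + CMS libraries were the highest here too, and the other groups overlapped. The sum of both genes was 153.4 ± 8.48 FPKM in the Veh group, 195.6 ± 16.6 FPKM in the Veh + CMS group and 138.8 ± 7.14 FPKM in the PHL + CMS group (SD, n = 3 each). Over the mean of Spcs2 and Spcs3, that sum stood at a ratio of 3.48 ± 0.357 in the Veh group, 5.06 ± 0.816 in the Veh + CMS group and 3.54 ± 0.289 in the PHL + CMS group. All of these values rest on Sec11c, which the selection used, and are a description. The ratio also moved with its divisor, in which mean Spcs3 stood at 48.6, 39.3 and 41.5 FPKM in the same order. Spcs1 was not part of that divisor.

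**Figure D2:**
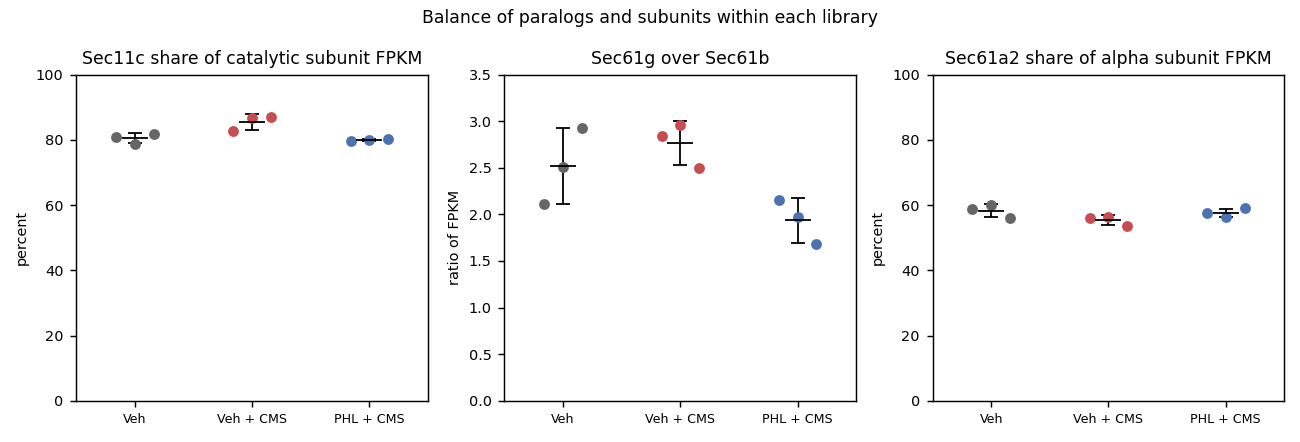
Balance of paralogs and subunits within each library: the share of Sec11c in the summed FPKM of Sec11a and Sec11c (percent), the ratio of Sec61g to Sec61b FPKM, and the share of Sec61a2 in the summed FPKM of Sec61a1 and Sec61a2 (percent). Points are libraries and bars are the mean and SD of 3. The Sec11c share is 82.6% to 87.0% in the Veh + CMS libraries and 78.7% to 81.7% in the others.

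Spcs1, Spcs2 and Spcs3 encode the non-catalytic subunits. Spcs1 (ENSRNOG00000018075, chr16:7080454-7082193, minus strand) and Spcs3 (ENSRNOG00000038933, chr16:40050734-40058822, plus strand) lie on chromosome 16, and Spcs2 (ENSRNOG00000018164, chr1:164829896-164849749, minus strand) lies on chromosome 1, as Sec11a does. Spcs3, the subunit whose yeast counterpart is needed for cleavage, was at 49.0, 52.1 and 44.8 FPKM in the Veh libraries, at 41.6, 35.2 and 41.0 FPKM in the Veh + CMS libraries and at 46.1, 38.4 and 39.9 FPKM in the PHL + CMS libraries. All Veh + CMS libraries lay below all Veh libraries, and the PHL + CMS libraries overlapped both groups. The log2 fold change against Veh was -0.31 (SE 0.10, limma adjusted p = 0.119) in the Veh + CMS group and -0.23 (SE 0.10, limma adjusted p = 0.462) in the PHL + CMS group. Spcs3 was the only member whose mean stood above that of the Veh + CMS group under PHL, by 0.08 (SE 0.10) on the log2 scale, a value of -7e-04 without PHL + CMS replicate 1.

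Spcs1, a small membrane subunit, was at 91.1, 92.9 and 100.1 FPKM in the Veh libraries, at 88.2, 94.2 and 82.3 FPKM in the Veh + CMS libraries and at 77.1, 74.0 and 80.6 FPKM in the PHL + CMS libraries. All PHL + CMS libraries lay below the libraries of both other groups, which overlapped each other. Set against Veh, Spcs1 stood at -0.29 (SE 0.07) on the log2 scale under PHL + CMS and at -0.10 (SE 0.07) under CMS, with limma adjusted p of 0.273 and 0.46, and against Veh + CMS the PHL + CMS group stood at -0.19 (SE 0.07). With quantile normalization the value under CMS was -0.01. Spcs2, the other accessory subunit, ranged from 35.4 to 41.9 FPKM with overlap in every comparison. Its log2 fold change against Veh was -0.04 (95% interval -0.24 to 0.16) in the Veh + CMS group and -0.11 (95% interval -0.30 to 0.09) in the PHL + CMS group (limma adjusted p = 0.827 and 0.704).

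Sec61a1, Sec61b and Sec61g encode the 3 subunits of the translocon and lie on 3 chromosomes. These are Sec61a1 (ENSRNOG00000013743, chr4:120453581-120467932, minus strand), Sec61b (ENSRNOG00000006345, chr5:63192298-63200508, plus strand) and Sec61g (ENSRNOG00000005203, chr14:99774589-99780964, minus strand). Sec61g, the small gamma subunit that spans the membrane beside the channel, was at 108, 114 and 146 FPKM in the Veh libraries, at 123, 128 and 105 FPKM in the Veh + CMS libraries and at 91.0, 75.5 and 72.8 FPKM in the PHL + CMS libraries. All PHL + CMS libraries lay below the libraries of both other groups, and Veh and Veh + CMS overlapped. The means were 122.8 ± 20.4, 118.7 ± 12.3 and 79.8 ± 9.83 FPKM (SD, n = 3 each). Against Veh the log2 fold change under PHL + CMS was -0.62 (SE 0.14, 95% interval -0.92 to -0.31), with a limma adjusted p of 0.236. The lowest limma adjusted p of any gene in that comparison was 0.235. Genes shared that value, with Ost4 and Emc2 of ER entry among them, so it gives Sec61g no rank. Without Veh replicate 3, the Veh library with most striatal marker RNA, the log2 fold change of Sec61g was -0.48 (limma adjusted p = 0.332). Against Veh + CMS it stood at -0.57 (SE 0.14), close in size to Sec11c. Under CMS alone it was -0.04 (SE 0.14, limma adjusted p = 0.897), and this small value changed sign with quantile normalization and with some libraries left out.

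Sec61b, the beta subunit, was at 51.1, 45.4 and 49.9 FPKM in the Veh libraries, at 43.3, 43.4 and 41.9 FPKM in the Veh + CMS libraries and at 42.2, 38.3 and 43.4 FPKM in the PHL + CMS libraries. All Veh libraries lay above all libraries of both stressed groups, which overlapped. The log2 fold change against Veh was -0.18 (SE 0.07, limma adjusted p = 0.189) under CMS and -0.24 (SE 0.07, limma adjusted p = 0.34) under PHL + CMS. Between the stressed groups it was -0.06 (SE 0.07). The ratio of Sec61g to Sec61b was 2.52 ± 0.407 in the Veh group, 2.77 ± 0.237 in the Veh + CMS group and 1.93 ± 0.24 in the PHL + CMS group (SD, n = 3 each), with overlap between Veh and PHL + CMS.

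Sec61a1 encodes the alpha subunit, which forms the channel itself. It ranged from 19.9 to 24.5 FPKM and overlapped in every comparison. Its log2 fold change against Veh was 0.09 (95% interval -0.12 to 0.31) in the Veh + CMS group and -0.01 (95% interval -0.22 to 0.21) in the PHL + CMS group, and -0.10 (SE 0.09) between the stressed groups (limma adjusted p = 0.608 and 0.987 against Veh). Sec61a2, the paralog of the channel subunit, stood at 30.8 ± 2.25 FPKM in the Veh group, 29.0 ± 0.653 FPKM in the Veh + CMS group and 29.7 ± 1.46 FPKM in the PHL + CMS group (SD, n = 3 each), and none of its comparisons passed (limma adjusted p from 0.572 to 0.876). Sec61a2 held 56.0% to 60.2% of the alpha subunit FPKM in the Veh libraries, 53.5% to 56.3% in the Veh + CMS libraries and 56.4% to 59.0% in the PHL + CMS libraries. The stressed groups did not overlap here but nearly touched (56.26% and 56.37%), in a comparison where 21.2% of all genes did not overlap. This share includes Sec61a1, a member, and is a description.

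**Figure D3:**
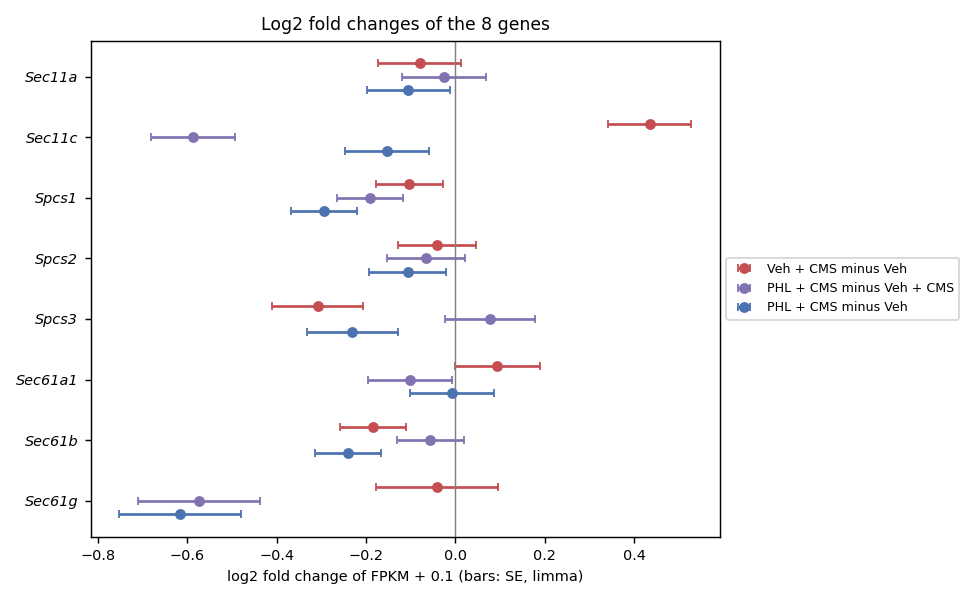
Log2 fold changes of FPKM + 0.1 for the 8 genes in the 3 comparisons, with bars of 1 SE from limma. Sec11c stands at 0.43 for Veh + CMS minus Veh and at -0.59 for PHL + CMS minus Veh + CMS, and Sec61g stands near -0.6 in both comparisons of the PHL + CMS group.

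Sec11c is left out of the counts that are read against all genes, since its Veh + CMS and PHL + CMS libraries chose the members and enter every comparison. Of the other 7 genes 1 stood above 0 (47.5% of all genes) and 6 below (52.5% of all genes) in the Veh + CMS group against Veh, with a median log2 fold change of -0.08 beside -0.02 over all genes tested. The libraries did not overlap for 2 of the 7 (Spcs3 and Sec61b, both lower), where the groups did not overlap for 27.6% of all genes, 14.1% higher and 13.5% lower. Of the 7 members with a test none passed an adjusted p of 0.05, against 3.79% of all genes, and 2 had an unadjusted p under 0.05, against 22.3%. In limma 613 genes passed in that comparison, 428 higher (2.65%) and 185 lower (1.14%). That count was 493 without Veh replicate 3 and 0 or 1 when any other library of the 2 groups was left out.

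Under PHL + CMS all 7 of these genes stood below the Veh group, with a median log2 fold change of -0.23 beside 0.00329 over all genes, of which 49.3% stood below and 50.6% above. The direction of Sec61a1 rested on single libraries, since its -0.01 turned to 0.07 without Veh replicate 3, 0.03 without PHL + CMS replicate 1 and 0.02 without PHL + CMS replicate 3. The libraries did not overlap for 3 of the 7 (Spcs1, Sec61b and Sec61g), against 17.5% of all genes (8.78% with the PHL + CMS libraries lower and 8.77% with them higher). After adjustment in limma none of the 7 tested members and 0 of all 16159 genes (0%) were past 0.05, and voom on whole reads gave 0 as well. At an unadjusted p under 0.05 there were 4 of the 7 (Spcs1, Spcs3, Sec61b and Sec61g), against 10.8% of all genes, or 1741, with 5.78% lower and 4.99% higher. Against the Veh + CMS group, with Sec11c included, 7 of the 8 stood below 0 (48.9% of all genes) with a median of -0.08, and the libraries did not overlap for Sec11c, Spcs1 and Sec61g, in a comparison where 21.2% of all genes did not overlap (10.7% lower, 10.5% higher). That comparison chose the members, so nothing is read from this count.

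The comparisons share libraries: a low PHL + CMS value enters both comparisons of that group. Side by side, Sec11c stood at -0.59 and -0.15 against Veh + CMS and Veh, Spcs1 at -0.19 and -0.29, and Sec61g at -0.57 and -0.62 on the log2 scale.

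The 4 members under 1000 bases long were Sec61g at 443 bases, Sec61b at 562, Sec11c at 812 and Spcs1 at 876. Among 1583 tested protein-coding genes under 1000 bases, the median log2 fold change was -0.16 for PHL + CMS against Veh, -0.11 for Veh + CMS against Veh and -0.06 for PHL + CMS against Veh + CMS. For 2747 genes of 4000 bases and over, the medians were 0.11, 0.08 and 0.02 in the same order. Spcs1 and Sec61g lay below the median of short genes in both comparisons of the PHL + CMS group. Sec61b lay below it against Veh, at -0.24 under PHL + CMS and -0.18 under CMS, and stood at -0.06 between the stressed groups. Sec11c lay above it under CMS, close to it at -0.15 for PHL + CMS against Veh, and below it at -0.59 for PHL + CMS against Veh + CMS. The part of gene length in these values was not tested. The Sec61g reads are uncertain for another reason: RefSeq names 5 genes as Sec61g-like and 8 pseudogenes of Sec61g elsewhere in the genome, and 1 pseudogene each of Spcs2 and Spcs3, and how the authors' counting treated reads shared between copies was not found in the sources read here.

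Among 78 other genes of ER entry and folding, from lists written by hand, 75 were tested. Their median log2 fold change was -0.01 in each of the 3 comparisons, with lists that stood on opposite sides of 0. In the Veh + CMS group against Veh 0 were higher and 1 was lower at an adjusted p under 0.05 in limma, with 10 higher and 13 lower at an unadjusted p under 0.05 (10.9% and 11.3% of all genes). In both comparisons of the PHL + CMS group 0 passed in limma, with 4 higher and 1 lower at an unadjusted p under 0.05 against Veh + CMS (7.51% and 8.22% of all genes), and 3 higher and 13 lower against Veh (4.99% and 5.78%). Against Veh the PHL + CMS libraries also lay below the Veh libraries without overlap for 14 of the 75, beside 8.78% of all genes, and above for 7, beside 8.77%. Over all genes, 285 passed for PHL + CMS against Veh + CMS without PHL + CMS replicate 2, the library with most myelin marker RNA in its group, and at most 1 when another library was left out.

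The gene that fell was Emc9, which encodes a subunit of the ER membrane protein complex. It was at 6.14, 6.85 and 5.45 FPKM in the Veh libraries and at 4.26, 4.05 and 4.26 FPKM in the Veh + CMS libraries, which put it at -0.54 (SE 0.12) on the log2 scale with an adjusted p of 0.0432 from limma. The call held in 7 of 16 alternatives, over which the adjusted p ran from 0.0312 to 0.16 and the log2 fold change from -0.62 to -0.46, and it was lost without Veh replicate 1 or 2 and without any of the Veh + CMS libraries. It was also lost with no filter (limma adjusted p = 0.0707), with moderation without trend (0.0623), with the replicate block (0.099) and with only the groups compared in the fit (0.0741). The PHL + CMS libraries stood at between 4.2 and 4.86 FPKM.

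Of the signal recognition particle and its receptor 6 of 8 listed genes were tested, and all 6 stood below 0 under CMS (52.5% of all genes), with a median log2 fold change of -0.13. Srp9, which with Srp14 slows the ribosome, stood at -0.31 (SE 0.08) under CMS and -0.32 (SE 0.08) under PHL + CMS against Veh, and Srp19, an assembly protein of the particle, at -0.23 (SE 0.08) and -0.30 (SE 0.08). Neither passed (limma adjusted p = 0.0687 and 0.145 under CMS, 0.274 and 0.292 under PHL + CMS). Between the stressed groups the smallest p of the list belonged to Srp54a, the subunit that binds the signal peptide, at -0.16 (SE 0.09), and to Srp14 at 0.33 (SE 0.27).

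Among 10 partners and paralogs of Sec61, 5 stood on either side of 0 under CMS. Sec63, which brings the chaperone BiP to the channel, stood at 0.25 (SE 0.08) and Tram1, a membrane protein beside the channel, at 0.23 (SE 0.09) under CMS (limma adjusted p = 0.122 and 0.182). In the PHL + CMS group against Veh + CMS they stood at -0.19 (SE 0.08) and -0.18 (SE 0.09). Ssr4 and Ssr3, subunits of the translocon-associated protein complex, stood at -0.25 (SE 0.08) and -0.13 (SE 0.08) for PHL + CMS against Veh (limma adjusted p = 0.34 and 0.598).

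Of 11 tested genes of the oligosaccharyltransferase, which adds sugar chains to proteins at the translocon, 8 stood below 0 under CMS (52.5% of all genes) with a median of -0.15. Dad1 and Ostc, small subunits of the enzyme, stood at -0.32 (SE 0.08) and -0.24 (SE 0.08), with limma adjusted p of 0.0603 and 0.111. Under PHL + CMS against Veh, Ost4, another small subunit, stood at -0.38 (SE 0.08) and Dad1 at -0.34 (SE 0.08), with limma adjusted p of 0.235 and 0.246. Tusc3 and Magt1, alternative oxidoreductase subunits, stood apart between the stressed groups at 0.36 (SE 0.10) and -0.39 (SE 0.15), with limma adjusted p of 0.167 and 0.26.

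Of 19 other membrane insertion factors 13 stood below 0 under CMS (52.5% of all genes) and 15 under PHL + CMS against Veh (49.3% of all genes). Get3, the ATPase that delivers tail-anchored proteins, stood at -0.28 (SE 0.07, limma adjusted p = 0.0532) under CMS and at 0.20 (SE 0.07) for PHL + CMS against Veh + CMS, where Nomo1 of the multipass translocon stood at 0.22 (SE 0.08). Emc2 and Emc7 of the ER membrane protein complex stood at -0.29 (SE 0.06) and -0.26 (SE 0.07) for PHL + CMS against Veh (limma adjusted p = 0.235 and 0.276). The 4 signal peptide peptidases, which cut leftover signal peptides within the membrane or belong to the same family, had medians of 0.15 under CMS and 0.19 under PHL + CMS against Veh. Sppl2a stood at 0.45 (SE 0.15) and 0.36 (SE 0.15) and Sppl2b at 0.34 (SE 0.10) and 0.18 (SE 0.10) in these comparisons, with limma adjusted p from 0.0996 to 0.57. For PHL + CMS against Veh + CMS, Hm13, the signal peptide peptidase itself, stood at 0.23 (SE 0.13) and Sppl2b at -0.16 (SE 0.10).

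ER chaperones and genes of the unfolded protein response, the program that raises ER folding capacity, stood above 0 for 20 of 25 genes under CMS (47.5% of all genes). Their median was 0.06, and 0 passed the test (3.79% of all genes). P4hb and Pdia4, disulfide isomerases, stood at 0.27 (SE 0.07) and 0.40 (SE 0.12), with limma adjusted p of 0.057 and 0.0911. In the PHL + CMS group against Veh + CMS 12 stood above 0 and 13 below (51.1% and 48.9% of all genes). No gene of this list had an unadjusted p under 0.05 in limma there, against 15.7% of all genes. Xbp1, a transcription factor of the response, stood at 0.25 (SE 0.12) and P4hb at -0.14 (SE 0.07). Against Veh 18 of 25 stood above 0 (50.6% of all genes), with Edem1 and Sel1l, of ER-associated degradation, at 0.29 (SE 0.10) and 0.22 (SE 0.08), and limma adjusted p of 0.373 and 0.399.

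**Figure D4:**
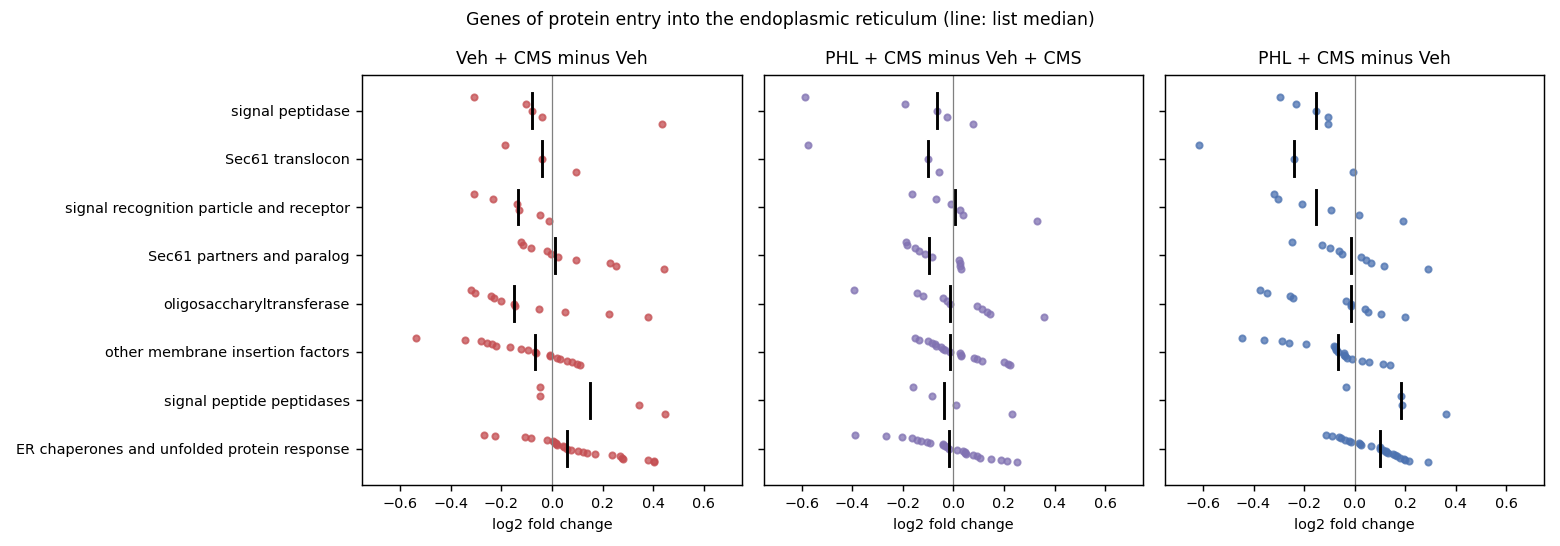
Log2 fold changes of the tested genes of ER entry and folding, by list, in the 3 comparisons. Points are genes and black lines are list medians. Of the genes shown, Sec11c and Sec61g lie farthest to the left for PHL + CMS minus Veh + CMS, and the list medians all lie within 0.25 of 0.

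The genes with the pattern most like that of Sec11c over the 9 libraries, by Pearson correlation of log2(FPKM + 0.1), were Galc (r = 0.966), a lysosomal enzyme that degrades myelin galactolipids, Ltbr (0.965), the lymphotoxin beta receptor, Havcr2 (0.958), an immune checkpoint receptor, and Ptprc (0.956), which encodes CD45. Their mean levels were 3.8, 9.4, 1.75 and 0.84 FPKM in the same order, against 134 FPKM for Sec11c and a filter at 0.5 FPKM. The genes were ranked among all genes tested, and the libraries fall into groups, so these values are a description of likeness. The 5 nearest to Sec11a were AABR07018064.1 (0.926), Zfp418 (0.926), NEWGENE_1582771 (0.919), Pak2 (0.893) and Nradd (0.884), and the 2 lists shared no gene. The mean levels of these 5 ran from 0.798 to 6.95 FPKM.

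Some marker lists had the same order of group means as Sec11c between the stressed groups, and the order of single libraries differed from list to list. All 15 markers of oligodendrocytes and myelin rose under CMS at an adjusted p under 0.05 in limma (2.65% of all genes), with a median log2 fold change of 1.66. Those calls belong to the same 613 and rest on the same libraries. For PHL + CMS against Veh + CMS all 15 stood below 0 (48.9% of all genes), with a median of -1.05. There 0 of the 15 passed an adjusted p of 0.05 in limma, as over all genes. Their summed FPKM ran from 2640 to 3302 in the Veh libraries, from 9061 to 12100 in the Veh + CMS libraries and from 3555 to 7744 in the PHL + CMS libraries, with no gene at 0. PHL + CMS replicate 2, with the mean of the myelin list 1.25 above Veh, had Sec11c at 116 FPKM, and replicates 1 and 3, at 0.34 and 0.12, had it at 104 and 113 FPKM. The library with most myelin marker RNA in that group had the highest Sec11c of the group, inside the range of the Veh libraries. Its myelin list lay near the 1.44 to 1.79 of the Veh + CMS libraries. The Veh + CMS replicates had the myelin list at 1.44, 1.79 and 1.64 and Sec11c at 149, 185 and 168 FPKM, in the same order. The Veh replicates had the list at 0.03, -0.18 and 0.16 and Sec11c at 131, 114 and 124 FPKM. There the lowest values fell in the same library and the highest did not.

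The 12 microglial markers stood above 0 under CMS (47.5% of all genes), with a median of 0.20. For PHL + CMS against Veh + CMS 11 of 12 stood below 0 (48.9% of all genes), with a median of -0.39. Their mean stood at 0.07, 0.39 and 0.22 in the Veh + CMS libraries and at -0.23, -0.11 and -0.21 in the PHL + CMS libraries, relative to Veh. The highest and the lowest of these 6 were the libraries with the highest and the lowest Sec11c. In the Veh libraries the microglial mean stood at -0.14, 0.07 and 0.07 and Sec11c at 131, 114 and 124 FPKM, so the lowest mean met the highest Sec11c. The library with the highest Sec11c, Veh + CMS replicate 2, also had the highest myelin list, at 1.79. That library stood apart in other measures too: mitochondrial genes took 13.9% of its reads, against 9.67% and 9.7% in the rest of its group. Its astrocyte list stood at 0.51 (0.02 and 0.11 in the rest), its endothelial list at 0.53 (-0.12 and -0.06) and its excitatory list at -0.51 (-0.29 and -0.20). Summed microglial marker FPKM ran from 256 to 299 (Veh), 291 to 356 (Veh + CMS) and 239 to 266 (PHL + CMS), with no gene at 0. The 10 striatal markers had medians of 0.89 and -1.15 in the same comparisons, with summed FPKM of 187 to 546, 308 to 749 and 204 to 220 and 1 gene at 0 in some library. Their mean was highest in Veh + CMS replicate 1, at 1.75, which had the lowest Sec11c of its group. The 12 markers of excitatory neurons stood on the opposite sides of 0, with medians of -0.32 and 0.41 and summed FPKM of 2403 to 3233, 1897 to 2761 and 2485 to 2772. The part of these cell types in the levels of Sec11c and Sec61g was not tested.

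For Sec61g, the microglial list had its lowest means in the same PHL + CMS libraries apart from Veh replicate 1, and mitochondrial genes took 6.96% to 9.09% of the reads there, against 9.67% to 13.9% in the Veh + CMS and 9.74% to 10.6% in the Veh libraries. Within the PHL + CMS group, replicate 1 had the lowest microglial mean (-0.23) and mitochondrial share (6.96%) and the highest Sec61g (91.0 FPKM). Replicates 2 and 3 had Sec61g at 75.5 and 72.8 FPKM and the microglial mean at -0.11 and -0.21. Their mitochondrial shares were 8.89% and 9.09%. In that group the mitochondrial share thus ran opposite to Sec61g, and the microglial mean did so for replicate 1 only. Under CMS the mean of the microglial list stood at 0.23 and Sec61g at -0.04. Of the remaining lists, 6 precursor markers of oligodendrocytes had medians of 1.13 under CMS and -0.57 for PHL + CMS against Veh + CMS, 10 astrocyte markers 0.10 and -0.12, 10 inhibitory neuron markers -0.21 and 0.05, 6 endothelial markers 0.07 and -0.28, and 6 markers of meninges and fibroblasts -0.60 and 0.78.

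**Figure D5:**
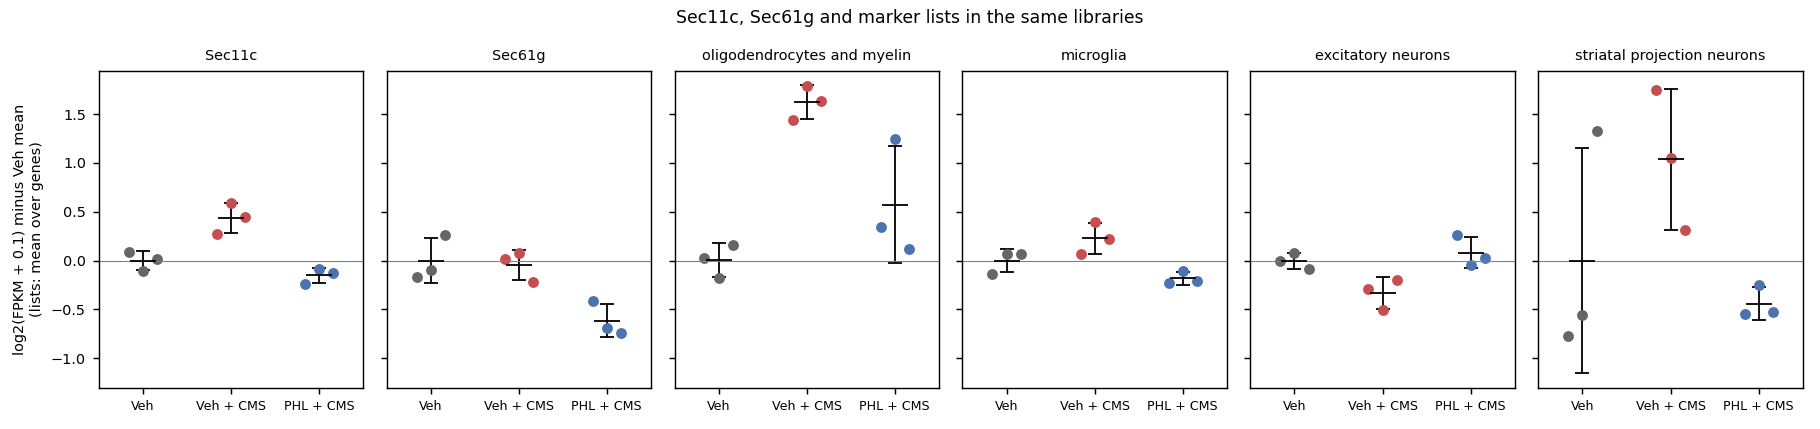
Level of Sec11c, of Sec61g and of 4 marker lists (mean over the genes of a list) in each library, as log2(FPKM + 0.1) minus the Veh mean. Points are libraries and bars are the mean and SD of 3. Sec11c and the microglial list have their highest mean in the Veh + CMS group, the myelin list stands at 1.44 to 1.79 there, and Sec61g is lowest in the PHL + CMS group.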

How the data were processed

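RNA from mPFC tissue of 9 libraries in 3 groups was analysed, with groups and replicate numbers from the sample labels. The authors deposited FPKM for 34463 Ensembl genes. The submitters' processing notes name HISAT2 and the build Rnor_6.0. Strand setting, counter, annotation and versions were not given in the sources used here. Multiplied by the deposited gene length (a count of bases), 100% of the FPKM values were whole multiples of 1 step per library, to within 1e-06, and were taken as reads. The deposited scaling lies within 0.794% of the median of ratios.

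The 16159 genes whose mean reached 0.5 FPKM (18304 did not) were fitted with limma 3.58.1 in R 4.3.3 on log2(FPKM + 0.1), with all 3 groups in the same fit and trended moderation (9.04 residual degrees of freedom with the prior). Tests were two-sided, with Benjamini-Hochberg adjustment over all genes and a threshold of 0.05, and the fit was tested on simulated data. The lists hold 177 symbols, of which 172 were found. The members, lists and tests were chosen with earlier results of these data known. Named were all members, the 2 genes of each pathway list with the smallest p in each comparison, genes past the threshold, and the 5 genes most correlated with Sec11c and with Sec11a, of which 1 is not reported here. Alternatives covered the pseudocount, filter, scaling, moderation, voom, a replicate block and each library left out. Reads of a gene and of an antisense partner cannot be told apart. The labels name no batch, and read quality was not examined. The intervals are 95% intervals from the same fit.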

Additional observations from a re-analysis of the deposited data

How the results depend on the processing

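The 8 genes gave 24 log2 fold changes, each recomputed under 16 alternatives. Of 384 values 373 kept their direction and, where tested, their side of the threshold, 11 changed sign, and the lowest adjusted p of any tested member in limma was 0.104. The changes of sign were all of small values. Under CMS against Veh, Sec61g became 0.0595 with quantile normalization and, with a library left out, ran from -0.126 to 0.0903 (positive when Veh replicate 3 was absent, and 0.0458 when Veh + CMS replicate 3 was). In that comparison Sec11a ran from -0.157 to 0.0069 and Spcs2 from -0.111 to 0.0064. Between the stressed groups Sec11a ran from -0.112 to 0.0514, with 0.0023 lacking PHL + CMS replicate 1, and Spcs3 from -7e-04 to 0.132. For PHL + CMS against Veh, Sec61a1 ran from -0.0769 to 0.0675, with 0.0263 and 0.024 lacking PHL + CMS replicate 1 or 3.

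The counts over all genes depended on the fit. Under CMS 613 genes passed, 301 with no filter, 2 with moderation without trend, 0 with the replicate block and 0 to 493 with a library left out (at most 1 in all of these but the fit that lacked Veh replicate 3). With quantile normalization 448 passed, 363 higher and 85 lower, against 428 and 185, and voom called 787. For PHL + CMS against Veh + CMS 0 passed, 6 with no filter, 1 with moderation without trend and 0 to 285 with a library left out (285 when PHL + CMS replicate 2 was absent, 26 higher and 259 lower). For PHL + CMS against Veh 0 passed, 4 with no filter and 0 to 1 with a library left out. The cause was not tested, and a fit with fewer libraries has fewer degrees of freedom. For libraries of the same number, the deviations from the group means correlated between -0.0974 and 0.0478 over 9 pairs. Over 18 pairs of different number they correlated between -0.081 and 0.126. With 3 libraries per group these values cannot show whether libraries of the same number shared more than that number. No tested member passed with or without the replicate block, so the block had no member call to remove. The count under CMS went from 613 to 0 with it.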
